A study of Mus musculus with 36 samples.

Results

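The TBP sites of RT7 cells were described from 2 lists of peak summits, 1 from cells given ethanol (EtOH) and 1 from cells given 4-hydroxytamoxifen (4-OHT). All 4045 summits of both lists were used, 2666 from the EtOH list and 1379 from the 4-OHT list, of the 9335 summits in the 4 TBP lists of the series. RT7 is a mouse embryonic stem (ES) cell line of genotype R26CreERT2/+;Taf7flox/flox, grown in serum medium with leukemia inhibitory factor and the inhibitors CHIR99021 and PD0325901. The Cre recombinase fused to a 4-OHT-responsive oestrogen receptor is expressed from 1 Rosa26 allele in both groups, so the controls carry the same floxed alleles and the same Cre. EtOH or 4-OHT was present from day 1 to day 3 of culture. Each treatment has 2 TBP CUT&RUN libraries and 1 IgG library. The lists carry no replicate number, so no treatment difference has a replicate check and no test was run. The RT7 EtOH IgG library is labelled with 4-OHT as its treatment, against its title, and the title was used. RT10 cells, the comparison line of the series, carry a floxed Taf10 allele in place of the floxed Taf7. In RT10 cells 4-OHT is thus the treatment meant to delete Taf10, and the loss of TAF10 was not checked here.

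TBP, the TATA-binding protein, is brought to RNA polymerase II promoters as part of TFIID, a complex of TBP and its associated factors (TAFs). At promoters with a TATA box, TBP contacts that sequence directly, while most mammalian promoters lack a TATA box and TFIID reaches them through several TAF contacts. TBP also belongs to the factors TFIIIB and SL1 that serve RNA polymerases III and I. TAF7 is a TFIID subunit that binds TAF1 and joins the complex late in its assembly. The TAF7 libraries were not analysed here, so the loss of TAF7 protein was not checked. No TBP summit lay at the start of Taf7 in either list, and a summit list could not show the deletion.

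Summits of the 2 lists were matched by distance. Those with a partner at most 250 bp away are called kept, and those of either list are called EtOH-only or 4-OHT-only when no partner lay within 1000 bp. Of the 2666 EtOH summits, 1033 (38.7%) were kept, 194 had a 4-OHT summit farther than 250 bp but within 1000 bp, and 1439 (54%) were EtOH-only. Of the 1379 4-OHT summits, 182 (13.2%) were 4-OHT-only. The kept summits closest to the limit lay 249 bp from their partner, and the nearest summits not counted as kept lay 251 bp away. The nearest EtOH-only summit lay 1017 bp from a 4-OHT summit, and the farthest summit still inside the 1000 bp limit lay 992 bp away. Percentages below carry exact 95% binomial intervals in parentheses, which cover counting error only, and the read depth behind the lists is unknown.

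Promoter sequences are shown first because kept and EtOH-only promoters differed in how often they hold a TATA motif, the hexamer TATAAA, in the 300 bases around the start. In a smaller number of promoters the hexamer lay 40 to 20 bases before the start. The 120 bases before the start are given from RefSeq promoter sequences of GRCm38.p6, 5′ to 3′ on the strand of the gene, with capitals for the TATA motifs TATAAA and TATATA and for the motifs CCAAT and GGGCGG, on either strand. Polr2a (chr11:69758634-69758753, minus strand) encodes the largest subunit of RNA polymerase II, Mat2a (chr6:72439557-72439676, minus strand) a methionine adenosyltransferase and Nqo1 (chr8:107403206-107403325, minus strand) a quinone reductase, and all 3 were kept. They are the kept genes outside the replication-dependent and variant histones with the highest EtOH scores and TATAAA 40 to 20 bases before the start, and were chosen after their values were seen. TATAAA began 33 bases before the start in Polr2a, 32 in Mat2a and 29 in Nqo1.
Polr2a: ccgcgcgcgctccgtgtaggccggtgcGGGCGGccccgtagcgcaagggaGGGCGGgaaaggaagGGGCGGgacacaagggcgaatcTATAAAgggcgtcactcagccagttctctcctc
Mat2a: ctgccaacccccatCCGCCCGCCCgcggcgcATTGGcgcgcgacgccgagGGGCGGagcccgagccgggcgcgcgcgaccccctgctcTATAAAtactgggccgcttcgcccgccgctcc
Nqo1: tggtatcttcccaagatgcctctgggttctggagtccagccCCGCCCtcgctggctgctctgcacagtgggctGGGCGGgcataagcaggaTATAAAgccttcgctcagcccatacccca

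Mknk2 (chr10:80676294-80676413, minus strand), a kinase of translation factor eIF4E, and Ckb (chr12:111672339-111672458, minus strand), the brain creatine kinase, were the EtOH-only genes chosen in the same way. TATAAA began 30 bases before the start in Mknk2 and 28 in Ckb.
Mknk2: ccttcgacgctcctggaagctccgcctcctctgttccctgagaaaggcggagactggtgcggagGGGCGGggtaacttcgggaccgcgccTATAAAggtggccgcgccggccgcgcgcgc
Ckb: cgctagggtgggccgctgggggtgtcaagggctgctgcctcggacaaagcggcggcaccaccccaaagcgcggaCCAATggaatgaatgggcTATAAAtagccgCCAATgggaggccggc

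For contrast, Calr (chr8:84846932-84847051, minus strand) had one of the highest kept scores, and Hnrnpc (chr14:52104022-52104141, minus strand) and Txn1 (chr4:57956412-57956531, minus strand) had the highest EtOH-only scores among protein-coding genes. None of these 3 stretches holds TATAAA, but Calr and Txn1 hold it elsewhere in the 300-base window. Calr counts as a promoter with the motif below. Txn1 is not counted there, because the start nearest its summit is that of Gm35344, which is not a protein-coding gene. H1f1 (chr13:23763548-23763667, plus strand), a linker histone gene with a 4-OHT-only summit, holds TATAAA 33 bases before the start.
Calr: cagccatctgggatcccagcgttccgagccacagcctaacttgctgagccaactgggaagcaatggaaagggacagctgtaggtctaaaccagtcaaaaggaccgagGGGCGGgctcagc
Hnrnpc: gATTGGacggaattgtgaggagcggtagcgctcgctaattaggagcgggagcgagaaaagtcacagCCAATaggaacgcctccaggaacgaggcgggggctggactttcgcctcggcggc
Txn1: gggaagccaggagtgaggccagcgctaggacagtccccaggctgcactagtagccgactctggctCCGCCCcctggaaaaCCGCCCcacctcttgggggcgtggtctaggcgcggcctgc
H1f1: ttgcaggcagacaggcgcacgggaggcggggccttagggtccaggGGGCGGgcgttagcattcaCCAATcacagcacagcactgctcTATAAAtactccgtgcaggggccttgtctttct

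A TATA motif was found more often in kept promoters than in EtOH-only promoters. TATAAA on either strand of the 300-base window, from 250 bases before the start to 50 from the start on, occurred in 63 of 356 kept promoters, or 17.7% (13.9 to 22.1). It occurred in 34 of 468 EtOH-only promoters, or 7.26% (5.08 to 10.0), and in 6 of 57 4-OHT-only promoters, or 10.5% (3.96 to 21.5). Over all 21263 protein-coding promoter windows the share was 12.6%, so the kept promoters lay above the share of all promoters and the EtOH-only promoters below it. When only TATAAA on the gene's strand 40 to 20 bases before the start was counted, the shares were 24 of 356 kept promoters, or 6.74% (4.37 to 9.87), 8 of 468 EtOH-only promoters, or 1.71% (0.741 to 3.34), and 2.47% of all promoters. TATATA occurred in 10.4% of kept and 2.56% of EtOH-only promoters against 5.54% of all. The motifs of other factors read in the same windows had overlapping intervals in kept and EtOH-only promoters. CCAAT occurred in 57.0% of kept and 54.3% of EtOH-only promoters against 38.2% of all. GGGCGG occurred in 73.9% and 72.4% against 46.2%. CCGGAAG, a motif of ETS factors, occurred in 13.8% and 18.6% against 11.6%, and TGACGTCA, the full cAMP response element, in 2.25% and 3.63% against 2.23%. Motifs were searched on both strands, and TATAAA and TATATA can overlap. The median GC content was 60.3% in kept and 61.3% in EtOH-only promoters against 56.3% in all, and the part of base composition in the motif shares was not tested. A match is a description of the letters in the window and not evidence of TBP contact there.

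The EtOH score of kept sites was higher than that of EtOH-only sites, so the motif was also read in groups by score. The score is the authors' −log10 q-value at the summit, and the EtOH list was divided by it into 3 groups of near equal size. In the group with the highest scores, TATAAA was present in 51 of 243 kept promoters, or 21.0% (16.0 to 26.7), and in 3 of 62 EtOH-only promoters, or 4.84% (1.01 to 13.5). In the middle group it was present in 9 of 77 and 10 of 194 promoters, or 11.7% (5.49 to 21.0) and 5.15% (2.50 to 9.28). In the group with the lowest scores, 3 of 36 kept promoters, or 8.33% (1.75 to 22.5), and 21 of 216 EtOH-only promoters, or 9.72% (6.12 to 14.5), held it. The intervals overlapped in the lowest and middle groups and lay apart in the highest group. In that group kept scores reach far above those of EtOH-only promoters, so a reading of promoters scoring from 8.71, the lowest score of the group, to 26.8, the highest of its EtOH-only promoters, was added after the values were seen. TATAAA was then present in 33 of 181 kept promoters, or 18.2% (12.9 to 24.6), against the same 3 of 62 EtOH-only promoters, and the intervals overlapped. Median scores in that range were still 14.9 for kept and 11.2 for EtOH-only promoters. For the hexamer 40 to 20 bases before the start, the shares from the lowest to the highest group were 5.56%, 6.49% and 7.00% of kept promoters and 1.39%, 2.06% and 1.61% of EtOH-only promoters, from 1 to 17 promoters with the hexamer in each, and the intervals overlapped in all 3 groups.

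**Figure D1:**
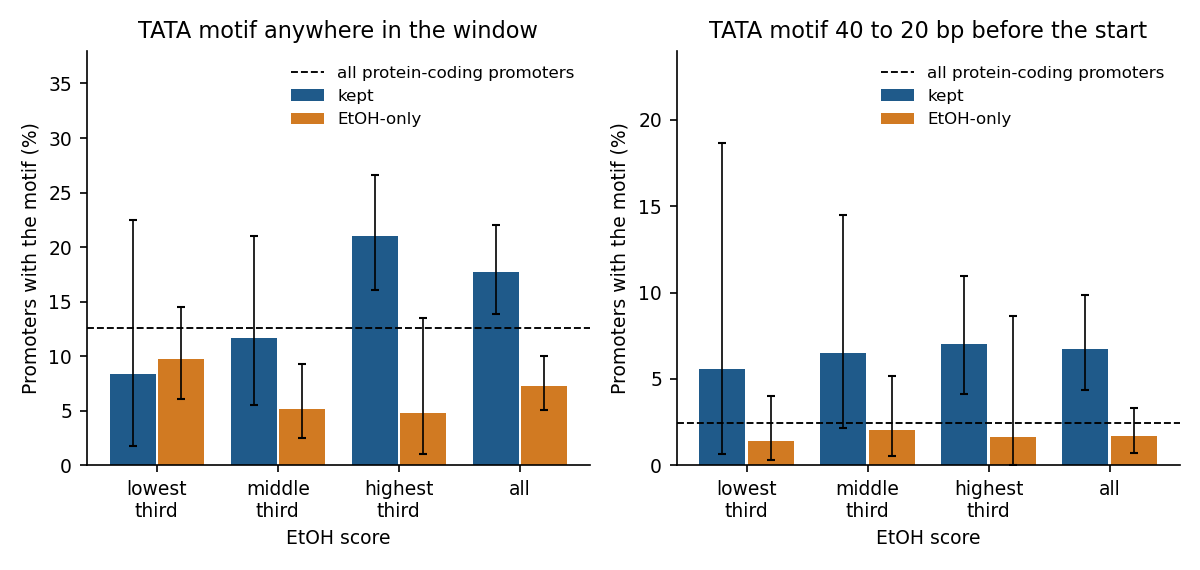
Share of promoters (%) with a TATA motif, TATAAA, anywhere in the 300-base window (left) or on the gene's strand 40 to 20 bp before the start (right), for kept and EtOH-only promoters in 3 groups by EtOH score and over all scores. Bars carry exact 95% binomial intervals, the dashed line is the share over all protein-coding promoters, and the kept share in the highest group on the left is 21.0% against 4.84% for EtOH-only.

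Replication-dependent histone genes form clusters of strong promoters, and the difference was also read without them. TATAAA was then present in 16.0% of 338 kept promoters (12.2 to 20.3) and 7.07% of 467 EtOH-only promoters (4.91 to 9.78), and the kept interval includes the 12.6% of all promoters. The 4-OHT-only share without histones was 3 of 54 promoters, or 5.56% (1.16 to 15.4). In the highest score group without histones the kept and EtOH-only shares were 18.6% and 4.84%. Among promoters also marked by a summit in RT10 cells given EtOH, TATAAA was present in 54 of 319 kept promoters, or 16.9% (13.0 to 21.5), and 23 of 272 EtOH-only promoters, or 8.46% (5.44 to 12.4).

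The 24 kept promoters with TATAAA at 40 to 20 bases included those of Polr2a (EtOH score 41.0, 4-OHT score 59.4), the immediate early gene Fos (26.8 and 20.1) and the pluripotency factor gene Tfcp2l1 (14.8 and 7.70). Also among them were Sod1 (4.68 and 6.71), which encodes superoxide dismutase, and Taf13 (4.83 and 4.44), which encodes a TFIID subunit. Besides Mknk2 (EtOH score 10.4) and Ckb (6.94), the 8 EtOH-only ones were those of Nppc (6.49), a natriuretic peptide gene, Cebpa (4.68) and Irf8 (4.27), which encode transcription factors, the histone gene H2ac1 (3.01), Gstm1 (2.23), a glutathione transferase gene, and Plet1 (2.19). The 4 4-OHT-only ones were those of H1f1, H1f3, Tubb2a and Ndrg4. Of the 24 kept promoters, 20 had a summit in both RT10 lists, against 3 of the 8 EtOH-only ones. Over all sites, 72.0% of kept and 25.6% of EtOH-only summits had one in both lists, and no difference from these shares was tested.

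Score separated kept from EtOH-only sites over the whole EtOH list. The median score was 11.5 for kept, 4.31 for EtOH-only and, in its own list, 3.10 for 4-OHT-only summits. In 5 EtOH groups by score, the share kept was 13.6%, 17.6%, 28.3%, 55.4% and 84.3% (80.8 to 87.3) from the lowest to the highest. The 4-OHT list showed a flatter course in its own 5 groups, with 54.8%, 67.0%, 78.9%, 89.5% and 89.8% (85.6 to 93.1) of its summits matched in the EtOH list. In the highest group of the EtOH list, 46 of 515 summits were EtOH-only.

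**Figure D2:**
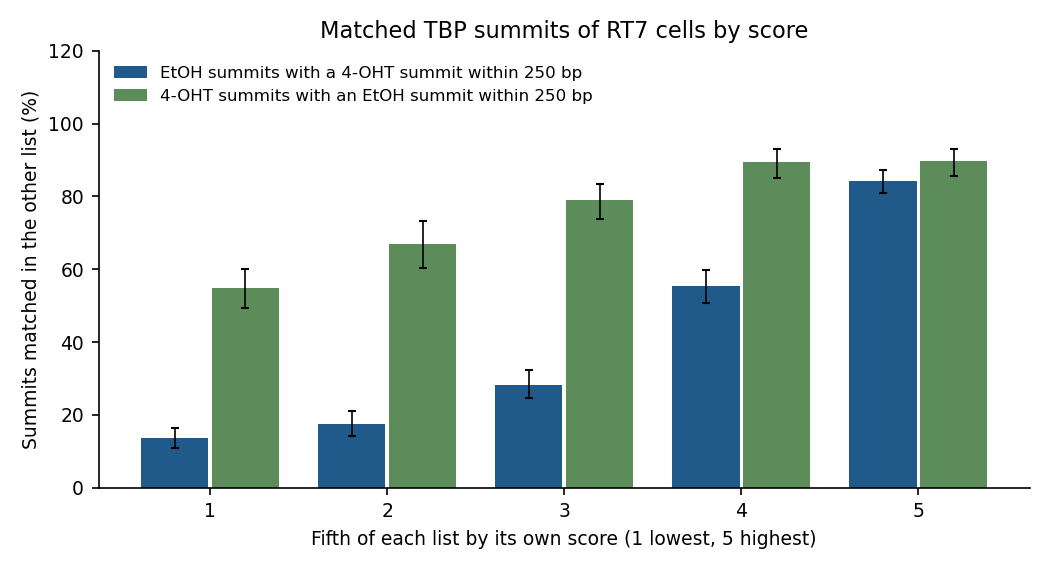
Share of summits (%) with a summit within 250 bp in the other RT7 list, in 5 groups of each list by its own score, with exact 95% binomial intervals. The EtOH bars run from 13.6% to 84.3% and the 4-OHT bars from 54.8% to 89.8%.

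Kept summits lay well inside the 250 bp that defined them. The median offset between an EtOH summit and its 4-OHT partner was 58 bp, with quartiles of 25 and 115 bp, and 463 of the 1033 kept summits (44.8%) lay within 50 bp. The median was between 53 and 62 bp in every class of site apart from the mitochondrial one. EtOH-only sites were mostly far from any 4-OHT summit, at a median of 210963 bp, and 60 of the 1439 lay within 2000 bp of one. For the 182 4-OHT-only sites the median was 52948 bp, and 19 lay within 2000 bp. Scores of kept pairs had a Spearman rho of 0.65 over 1033 pairs, which is given as a description, since the pairs share their 2 lists.

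Sites were then divided by what lay within 500 bp. Starts of protein-coding genes made up similar shares of the 3 kinds of site, 39.3% of kept (36.3 to 42.4), 38.1% of EtOH-only (35.6 to 40.6) and 35.7% of 4-OHT-only summits (28.8 to 43.1). RNA polymerase III genes made up 11.0% of kept summits (9.19 to 13.1), 1.18% of EtOH-only (0.690 to 1.88) and 4.95% of 4-OHT-only summits (2.29 to 9.18). Summits inside genes away from a start made up 17.7% of kept and 27.7% of EtOH-only summits, and intergenic ones 21.7% and 27.9%. Seen from the EtOH list, 406 of 997 summits at protein-coding starts were kept, or 40.7% (37.7 to 43.8). At RNA polymerase III genes 114 of 166 were kept, or 68.7% (61.0 to 75.6), and the median score there was 15.9 against 6.49 at protein-coding starts. Inside genes 29.5% of 621 and in intergenic sequence 33.0% of 679 summits were kept. In the highest of the 5 score groups the classes came closer together, with 88.3% kept at protein-coding starts, 83.5% at RNA polymerase III genes, 80.3% inside genes and 79.2% in intergenic sequence.

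Kept and EtOH-only summits lay mostly just before the start of the gene. At protein-coding starts of known strand the median was 109.5 bp before the start for 352 kept summits and 118 bp before it for 467 EtOH-only summits, with 72.4% and 72.2% of summits before the start. For 57 4-OHT-only summits the median was 69 bp before the start and 57.9% (44.1 to 70.9) lay before it. A summit with 1 protein-coding gene in reach was kept in 40.8% of 841 cases, and one with 2 or more, as at divergent promoters, in 40.4% of 156.

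**Figure D3:**
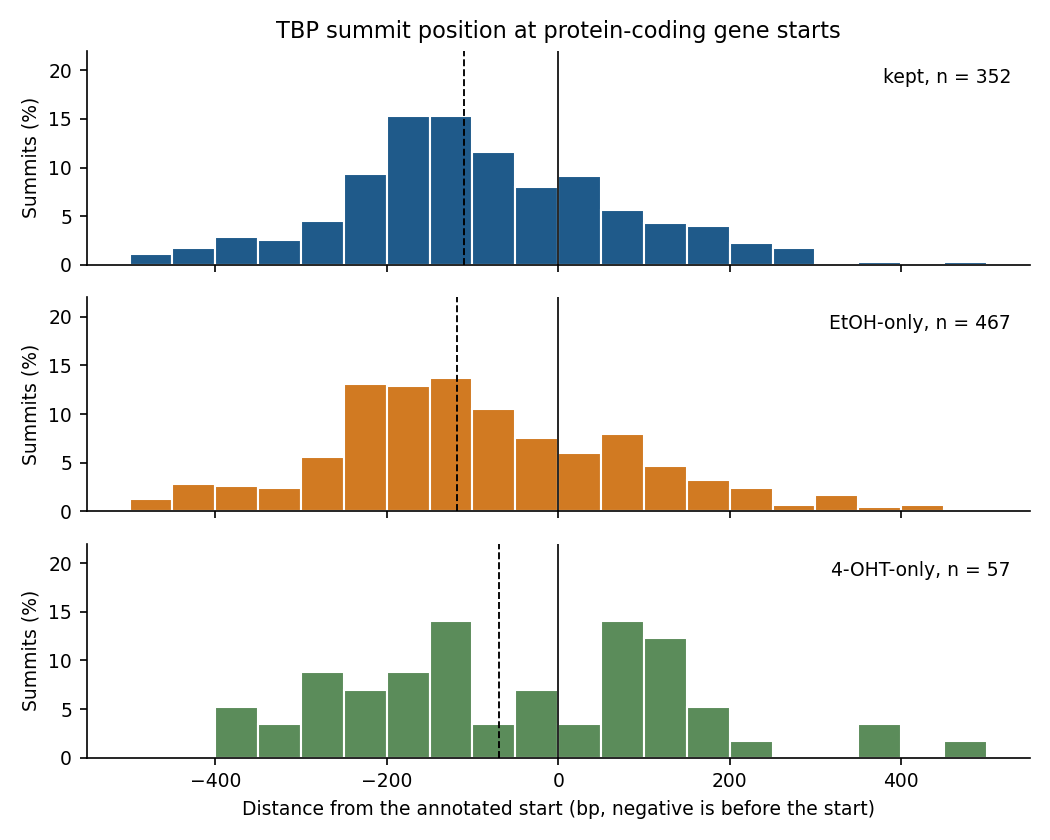
Distance (bp) of TBP summits from the nearest annotated protein-coding start, in 50 bp bins as a share of the summits of each kind (%). The dashed line marks the median, which lies 109.5 bp before the start for kept, 118 bp for EtOH-only and 69 bp for 4-OHT-only summits.

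The EtOH list was 2666 summits long and the 4-OHT list 1379, so the comparison was repeated with the 1379 EtOH summits of highest score. Lists of equal length that pair nearly one to one have nearly equal numbers without a partner by construction, so the split by class is the only information in this reading. Over all classes the numbers were 466 EtOH-only summits, or 33.8% (31.3 to 36.4), and 431 4-OHT-only summits, or 31.3% (28.8 to 33.8), and 813 EtOH summits (59.0%) were kept. At protein-coding starts 35.1% of EtOH summits (31.0 to 39.3) and 30.0% of 4-OHT summits (26.0 to 34.2) had no partner. At RNA polymerase III genes 10 of 144 EtOH summits, or 6.94% (3.38 to 12.4), and 12 of 154 4-OHT summits, or 7.79% (4.09 to 13.2), had none. In every class the 2 intervals overlapped. The lowest score taken was 5.57, which 150 EtOH summits share, and 56 of these were taken by position. The motif difference was also present in the lists of equal length, with TATAAA in 19.4% of kept (15.0 to 24.5), 5.59% of EtOH-only (2.59 to 10.3) and 10.2% of 4-OHT-only promoters (5.52 to 16.7). What made the 4-OHT list the shorter one was not tested.

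**Figure D4:**
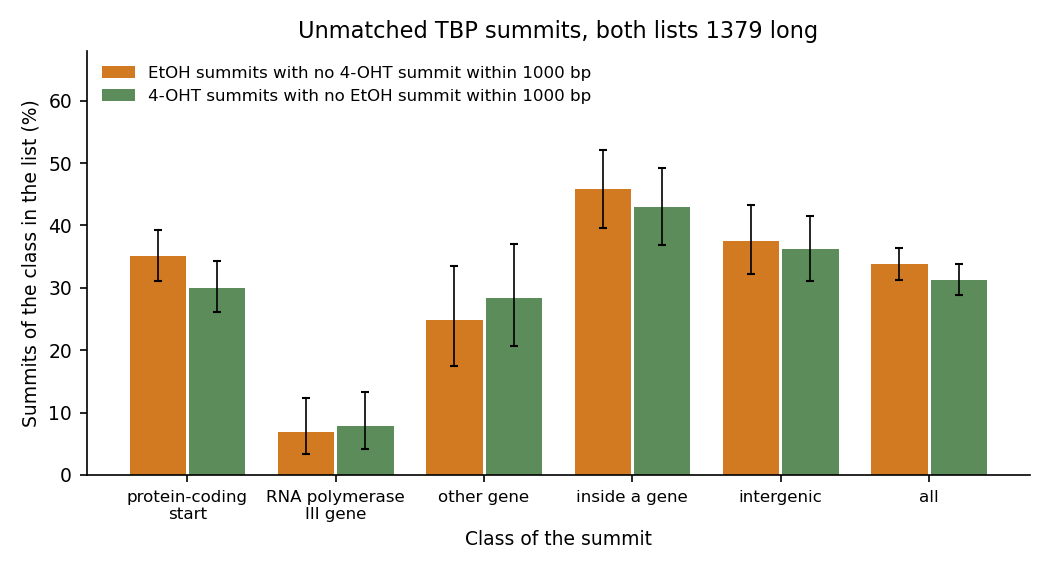
Share of summits of each class (%) with no summit within 1000 bp in the other list, after the EtOH list was shortened to the 1379 summits of highest score, with exact 95% binomial intervals. The EtOH and 4-OHT bars over all classes are 33.8% and 31.3%, nearly equal because the lists are equally long, and the intervals overlap in each class.

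At the level of genes, 1221 protein-coding genes had an EtOH summit within 500 bp of a start. Of these, 516 (42.3%) had a kept summit, 662 (54.2%) had EtOH-only summits and 43 had a 4-OHT summit between 250 and 1000 bp away. In the 4-OHT list 627 protein-coding genes had a summit, and 79 had 4-OHT-only summits. With lists of equal length, 237 of 684 genes with an EtOH summit were EtOH-only and 184 of 627 with a 4-OHT summit were 4-OHT-only. With ties taken in reverse these counts were 252 of 703 and 179 of 627. The counts of gene groups below are to be read against the 42.3% kept.

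The kept genes with the highest scores were led by core histone genes. H2ac6 and H2bc4, a divergent pair on chromosome 13, shared an EtOH score of 167 and a 4-OHT score of 87.5, with summits 8 bp apart. H3c1 had scores of 129 and 59.9. Calr, which encodes calreticulin, a calcium-binding chaperone of the endoplasmic reticulum, had scores of 138 and 119. Med16, a Mediator subunit gene whose summit also lay at Gm24019, had scores of 135 and 71.0. They were followed by Ddx5 (120 and 50.4), an RNA helicase gene, Arrdc2 (81.1 and 41.4), Ubb (77.4 and 55.2), a polyubiquitin gene, Ing1 (73.4 and 47.6), a chromatin reader gene, and Get3 (66.5 and 26.7), which inserts tail-anchored proteins. Klf6 (60.9 and 30.4), a zinc finger factor gene, Tubb4b (59.8 and 28.9), a tubulin gene, and H3f3b (57.8 and 23.8), which encodes histone H3.3, completed the group. All 20 highest kept genes had a summit in both RT10 lists, as did 72.0% of all 1033 kept summits, a share that covers all scores. Khsrp, with an EtOH score of 60.9, was kept through a 4-OHT summit 62 bp away (score 18.6) that lay beyond 500 bp of the start.

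The EtOH-only genes had lower scores, from 14.5 to 26.8 for the 20 highest. Hnrnpc, an hnRNP gene, and Txn1, which encodes thioredoxin, both had an EtOH score of 26.8. The nearest 4-OHT summit lay 1013813 bp from Hnrnpc and 114391 bp from Txn1. Anp32e, a histone chaperone gene for H2A.Z, and Rab5a, an endosomal GTPase gene, had 20.6, and Tsen34, a tRNA splicing endonuclease subunit gene, had 19.7. Rplp2 (19.4) encodes an acidic ribosomal protein, Jup (18.2) plakoglobin, Gatad2a (17.3) a NuRD subunit, Mdc1 (15.9) a DNA damage mediator, Vcl (15.7) vinculin and Asf1b (15.3) a histone chaperone. E2f3, a cell cycle transcription factor gene, Ier5l, Manf, a neurotrophic factor gene, and the pair Med29 and Paf1 shared a score of 14.8. The remaining ones were 6430548M08Rik (18.1), Paip2b (15.9), Rab11fip5 (15.5) and Nutf2 (14.5). Of the 20, 18 were also marked by a summit in RT10 cells given EtOH and 16 in RT10 cells given 4-OHT. Over all 1439 EtOH-only summits, 750, or 52.1% (49.5 to 54.7), had an RT10 EtOH summit. An RT10 4-OHT summit was present for 482, or 33.5% (31.1 to 36.0). These shares cover all scores. For the 46 EtOH-only summits in the highest of 5 score groups, where the 20 genes lie, they were 80.4% and 73.9%.

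The 4-OHT-only genes had scores from 5.32 to 27.7 for the 20 highest. The 4 highest all lay beside an EtOH summit just past the 1000 bp limit. Aloxe3 (27.7) shared its summit with a lysine tRNA gene and lay 1484 bp from an EtOH summit, H1f1 (20.1) 1238 bp, H1f3 (19.2) 1053 bp and H3c4 (16.5) 1070 bp. After them came Pcgf2 (7.70), a Polycomb subunit gene, Ddx39a (6.91), an RNA helicase gene, Hmox1 (6.71), which encodes haem oxygenase, Plekhm1 (6.71) and Rmc1 (6.71), genes of endosome and lysosome traffic, and Nfatc3 (6.27), a transcription factor gene. Those with a score of 5.76 included Irf9, an interferon response factor gene, Ilvbl, Qsox2, Cpsf4l, Washc2, Wipi1 and the pair Prkcsh and Ccdc151. Lamp1, a lysosomal membrane protein gene, had 5.75, and Tubb2a, a tubulin gene, 5.32. Of the 20, 15 also had a summit in RT10 cells given EtOH. Over all 182 4-OHT-only summits, whatever their score, 86, or 47.3% (39.8 to 54.8), had one.

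Genes of the transcription machinery were kept in part. Of 18 genes of TFIID subunits and related TAFs, 4 had an EtOH summit, against 1221 of all 21900 protein-coding genes. Taf13 was kept, while Taf15 (14.2), a FET family gene counted in the list, Taf8 (5.57) and Taf4 (3.83) were EtOH-only, and Taf4b was 4-OHT-only (2.30). Tbp, Taf7 and its paralogue Taf7l had no summit at their start in either list. Among 30 genes of RNA polymerase II and general factors 2 of 5 bound genes were kept, Polr2a and Gtf2h1 (20.2 and 8.71), and Polr2l (3.83) and Gtf2h5 (3.01) were EtOH-only. Among 33 Mediator genes 2 of 5 were kept, while Med29, Med21 (6.94) and Med19 (3.57) were EtOH-only and Med1 was 4-OHT-only (3.10). Among 23 SAGA and ATAC genes 1 of 5 was kept, Tada3 (28.9 and 14.8), and Taf6l (10.4), Usp22 (7.45), Eny2 (6.49) and Kat14 (3.83) were EtOH-only.

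ES cell genes were found on both sides. Of 28 pluripotency genes, 10 had an EtOH summit and 5 were kept, Nanog (22.7 and 11.9), Stat3 (18.2 and 6.71), Tfcp2l1, Klf2 (9.25 and 3.10) and Dppa3 (8.43 and 3.59). Tbx3 (11.5), Trim28 and Zfp42 (both 5.08), and Fgf4 and Klf5 (both 3.83) were EtOH-only. Of the 8 fibroblast markers 1 had a summit, Fn1 (7.34), and of the 8 lineage markers 1, Eomes (5.68). Both summits were EtOH-only. None of the 4 markers of the 2-cell-like state had one. Over all protein-coding genes 1221 of 21900 had an EtOH summit, so lists this short cannot tell whether other cell types were present.

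Growth and stress genes were kept in differing proportions. Of 62 replication-dependent histone genes, 32 had an EtOH summit and 28 were kept (87.5%), with a median EtOH score of 38.9, and the pair H2ac1 and H2bc1 (3.01) was EtOH-only. Several H2A and H2B gene pairs share a summit and its score, so these genes are not independent. All 5 bound genes of ubiquitin and ubiquitin conjugation were kept, among them Ubb, Ube2s (47.4 and 29.1) and Ube2b (25.6 and 5.52). Of 14 bound immediate early genes 9 were kept, among them Egr1 (53.3 and 30.4), and Junb (12.5), Klf10 (9.42), Atf3 (7.45), Maff (3.01) and Ier5l were EtOH-only. The Junb summit lay 1080 bp from a 4-OHT summit, just past the 1000 bp limit. Of 19 bound chaperone genes 9 were kept, among them Hspa8 (41.7 and 9.13) and Hsp90ab1 (28.1 and 14.7), and Hspa1b (9.42), Cct3 (5.57) and Bag1 (3.83) were EtOH-only. Of 10 bound oxidative stress and metallothionein genes 5 were kept. Their scores were 24.1 and 23.5 for Mt1, a metallothionein gene, and its neighbour Mt2 (12.6) was EtOH-only.

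Genes of translation and RNA processing were kept in shares on both sides of the 42.3% of all bound genes, and no difference from it was tested. Of 83 cytoplasmic ribosomal protein genes, 31 had an EtOH summit and 19 were kept (61.3%), led by Rps26 (51.8 and 31.8). Rplp2, Rpl22 (7.45), and Rpl13a, Rpl6 and Rps6 (all 5.57) were among the 12 that were EtOH-only. Of 6 bound mitochondrial ribosomal protein genes 2 were kept (33.3%), among them Mrpl2 (28.1 and 9.75), and Mrpl51 (7.57) was among 4 that were EtOH-only. Of 14 bound translation factor genes 8 were kept, among them Eif4a1 (37.5 and 13.0), and Eif5 (12.2), Eif2ak3 (9.03) and Eif4g2 (3.83) were EtOH-only. Of 23 bound genes of splicing factors and hnRNPs 15 were kept (65.2%), among them Hnrnpa1 (29.4 and 21.3) and Srsf2 (23.1 and 11.9), and Hnrnpc, Snrpd2 (10.4) and Srsf6 (7.45) were EtOH-only. Of 5 bound nucleolar assembly genes only Utp18 (3.77 and 2.01) was kept, and Ncl (7.45), Nhp2 (6.49), Fbl (5.75) and Dkc1 (2.23), genes of nucleolin and of small nucleolar ribonucleoproteins, were EtOH-only. Of 10 bound host genes of small nucleolar RNAs 6 were kept, among them Gas5 (19.4 and 5.02), and Snhg8 (17.1) and Snhg3 (9.42) were EtOH-only.

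Chromatin, zinc finger and cell division genes were kept in shares from 30.8% to 42.9%, against the 42.3% of all bound genes, and no difference from it was tested. Of 21 bound chromatin genes 8 were kept (38.1%), among them Kmt5c (21.8 and 4.46) and Mbd3 (15.9 and 1.84), and Gatad2a (17.3), Arid4b, Brd2 and Kat5 (all 9.42) were among 13 EtOH-only. Of 26 bound zinc finger genes 8 were kept (30.8%), among them Zfp84 (39.2 and 17.9), and Zfp143 (12.6) and Zfp747 (8.42) were among 18 EtOH-only, with a median EtOH score of 4.68. Of 10 bound cyclin and cell cycle kinase genes 4 were kept, among them Cdk4 (27.2 and 18.9), and Ccng2 (9.42) and Cdc45 (6.49) were EtOH-only. Of 7 bound DNA replication genes 3 were kept (42.9%), and Mcm4 and Pcna (both 6.49) were EtOH-only. The median EtOH score of bound members ran from 4.68 for zinc finger genes and 5.75 for nucleolar assembly genes to 25.6 for ubiquitin genes and 38.9 for histone genes, and the part of score in these counts was not tested.

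tRNA genes, transcribed by RNA polymerase III, kept most of their TBP summits. Of 408 tRNA genes 187 had an EtOH summit within 500 bp and 182 a 4-OHT summit. Of the 187, 140 had a kept summit, 32 a 4-OHT summit between 250 and 1000 bp away and 15 were EtOH-only, while 11 were 4-OHT-only. Neighbouring tRNA genes share summits, so these genes are not independent. The highest kept sites lay at n-TEctc11 and n-TFgaa4 on chromosome 13 (EtOH score 88.0) and at n-TWcca7 and n-TGtcc6 on chromosome 11 (78.2). Of the EtOH-only genes n-TCgca55 (32.1) had a 4-OHT summit 1183 bp away, while n-TVaac3 (18.2) had none within 5462 bp. All 5 bound phenylalanine and all 4 bound asparagine tRNA genes were kept, and 4 of 14 bound leucine tRNA genes were EtOH-only. Among other RNA polymerase III genes Rny1, a Y RNA gene (28.8 and 21.3), and Rmrp, the RNA of RNase MRP (8.42 and 5.76), were kept. Rn7s2, a 7SL RNA gene (7.45), and Rpph1, the RNA of RNase P (5.57), were EtOH-only.

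Some sites lay at no protein-coding start. The highest EtOH-only sites inside genes were those in Etl4 (24.5), 1017 bp from a 4-OHT summit, Nmnat2 (24.3) and Arntl (19.4), and the highest kept ones those in Pigl (56.3) and Arid5b (37.5) among named genes. A kept site with a score of 54.8 lay 77 bp from the annotated edge of Per1, a clock gene, and was classed as intergenic because the promoter table holds only starts farther inside that gene. Some starts are missed in this way: 12 of 407 kept and 21 of 799 EtOH-only summits classed as inside genes or intergenic lay within 500 bp of either end of a protein-coding gene. Chromosome 13, which holds histone and tRNA clusters, had the highest share of kept summits, 118 of 210 or 56.2% (49.2 to 63.0), and the X chromosome the lowest, 6 of 25 or 24.0% (9.36 to 45.1).

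Presence in RT10 cells, another line cultured alike, was read for the same 3 kinds of site. The RT10 4-OHT list comes from cells treated to delete Taf10, so line and treatment cannot be told apart in it. An RT10 EtOH summit lay within 250 bp of 86.2% of kept summits (83.9 to 88.2), 52.1% of EtOH-only summits (49.5 to 54.7) and 47.3% of 4-OHT-only summits (39.8 to 54.8). In the 5 EtOH score groups the shares were 69.0%, 67.4%, 85.2%, 88.3% and 92.2% of kept summits and 35.5%, 49.6%, 62.4%, 74.6% and 80.4% of EtOH-only summits. The kept share was the higher in each group. In the highest group the intervals overlapped, 89.2 to 94.5 for kept and 66.1 to 90.6 for 46 EtOH-only summits. Scores there reach 522 for kept but 32.1 for EtOH-only summits. With lists of equal length the shares were 89.9%, 68.9% and 59.9%. Of the EtOH-only summits, 369 (25.6%) had a summit in both RT10 lists, 381 (26.5%) in the EtOH list alone, 113 (7.85%) in the 4-OHT list alone and 576 in neither. Of the kept summits 744 (72.0%) were in both and 73 (7.07%) in neither.

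**Figure D5:**
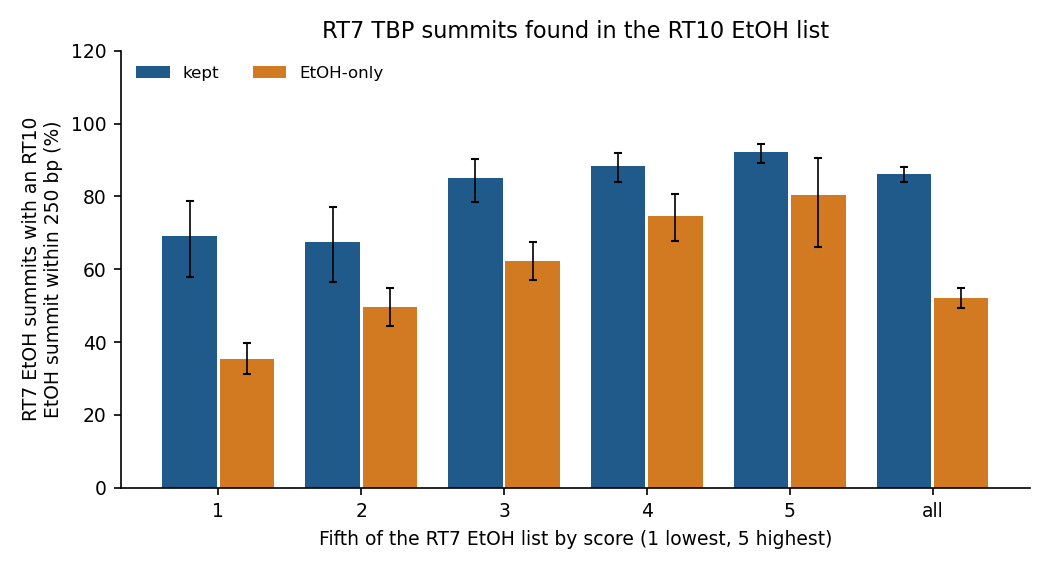
Share of RT7 EtOH summits (%) with an RT10 EtOH summit within 250 bp, for kept and EtOH-only summits in 5 groups by RT7 EtOH score and over all scores, with exact 95% binomial intervals. The kept bar is the higher of each pair, from 69.0% against 35.5% in group 1 to 92.2% against 80.4% in group 5, where the intervals overlap.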

How the data were processed

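TBP was profiled by CUT&RUN, in which a nuclease tethered to an antibody releases bound DNA. Reads were handled with cutadapt 4.0, Bowtie2 2.4.4, SAMtools 1.15.1, bedtools, deepTools and MACS2 2.2.7.1 on mm10, as named in the submitters' processing notes without parameters. The deposited score is the −log10 q-value at each summit of TBP over IgG, and a pooling of the 2 libraries by the authors is neither stated nor denied. Scores were used to rank summits within a list. A Spearman rho was given over kept pairs, and the alternative score minimums were set alike in both lists. Otherwise scores of both lists stand side by side without comparison.

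Gene positions and promoter windows came from RefSeq tables of GRCm38.p6, the assembly of mm10. Of 21900 protein-coding genes 17492 had a promoter entry, and for the others either gene end was used. Bound genes are those with a start at most 500 bp from a summit. RNA polymerase III genes (490) were tRNA genes and those of U6, 5S, Y, vault, 7SL and 7SK RNAs, Rpph1 and Rmrp. Motif shares count each promoter nearest a summit once, and only where the start nearest the summit was that of a protein-coding gene. Mitochondrial summits stayed out of gene counts.

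The members and the 34 gene lists were chosen with earlier results of these data known. Named genes were the 20 highest-scoring kept, EtOH-only and 4-OHT-only ones, up to 5 members per list with EtOH-only first, the highest sites of other classes and the TFIID genes. Other kept members, the TATA examples, and the tRNA counts by amino acid were picked after their values were seen. Alternatives covered pairing and start distances, score minimums, list length, chromosomes and TATA definition. Counting either end of every gene as a start, and the narrower score range for TATAAA, were added after the values were seen. Matching code was tested on simulated data. Intervals are exact Clopper-Pearson. Python 3.11.15, NumPy 2.4.6, pandas 2.3.3, SciPy 1.17.1 and matplotlib 3.10.9 were used.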

Additional observations from a re-analysis of the deposited data

How the results depend on the processing

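Of 78 alternatives, 35 stayed inside the counting interval or within 1.5 times the count and 43 did not. Pairing at 100, 500 and 1000 bp gave 27.1%, 43.3% and 46.0% of EtOH summits kept, against 38.7%, and 52.4%, 82.8% and 86.8% of 4-OHT summits matched. Score minimums of 5 and 10 in both lists matched 80.0% and 83.7% of 4-OHT summits, and left 871 and 442 EtOH-only and 90 and 30 4-OHT-only summits. With no gap above the 250 bp pairing distance, 345 summits were 4-OHT-only.

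With the EtOH list shortened, and ties taken by position or in reverse, 59.0% or 58.9% of EtOH and 59.1% or 59.0% of 4-OHT summits were matched, 466 or 470 were EtOH-only and 431 or 432 4-OHT-only. With ties in reverse 42.6% of EtOH-only summits lay at protein-coding starts. RNA polymerase III genes held 13.3% of kept summits (by position) and 2.15% or 2.13% of EtOH-only. RT10 EtOH summits lay at 89.9% or 90.0% of kept, 68.9% or 68.7% of EtOH-only and 59.9% or 60.4% of 4-OHT-only summits.

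With starts taken within 250 bp, protein-coding starts held 33.0% of kept, 31.1% of EtOH-only and 27.5% of 4-OHT-only summits, and RNA polymerase III genes 9.0% and 0.625% of the former 2. Within 1000 bp protein-coding starts held 41.3% of EtOH-only summits. RT10 matching at 500 bp gave 91.5% of kept and 57.1% of EtOH-only. TATAAA or TATATA occurred in 25.6% of kept promoters, and TATAAA 40 to 20 bases before the start in 6.74% of kept and 1.71% of EtOH-only promoters. The kept share of promoters with a TATA motif was above the EtOH-only share under each TATA definition and list length run. In a reading added after the values were seen, of the highest score group up to its highest EtOH-only promoter, 18.2% of kept and 4.84% of EtOH-only promoters held TATAAA. With either end of every gene also counted as a start, likewise added, protein-coding starts held 41.2% of kept and 39.9% of EtOH-only summits. No paired analysis was possible because the lists carry no replicate number, and for the same reason no replicate could be left out.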
